A study of Homo sapiens with 10 samples.

Results

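Nucleotide excision repair cuts out bulky lesions of DNA, the platinum adducts left by cisplatin among them. A lesion is found either by surveying proteins anywhere in the genome or by a stalled RNA polymerase, TFIIH opens the helix, a pair of nucleases cuts the damaged strand on each side, and a replicative polymerase with its clamp fills the gap before a ligase seals it. The 44 genes described here are the damage sensors, the TFIIH subunits, the incision proteins and the gap-filling proteins of this pathway. All 44 were found, each with 1 identifier, among the 58037 gene identifiers of the input RNA tables, and all 44 passed the filter on low counts that left 16406 genes for testing. They fell into 5 role groups, with 8 genes for damage recognition across the genome, 5 for recognition coupled to transcription, 9 for TFIIH, 7 for verification and incision and 15 for gap filling and ligation.

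The cells were A549, a human lung adenocarcinoma line, and A549/DDP, a line of A549 resistant to cisplatin (DDP), both grown in RPMI medium with serum and with no drug named in the labels. For each line, RNA pulled down with an antibody against N6-methyladenosine (m6A) was sequenced in 2 m6A-seq libraries beside 2 input libraries of fragments not pulled down, so that the inputs measured RNA levels and the pulled-down libraries gave lists of m6A peaks. The inputs held 35286514 and 34570074 expected counts in A549 and 29225501 and 33971561 in A549/DDP, with 86 to 18998 counts per member and library. A549/DDP was 1 line. The cell line tag of the A549/DDP inputs reads A549 while title and cell type give resistance. Nothing in the labels says that replicates were separate cultures, so that p-values measure only the spread between these libraries, which may be technical.

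Epithelial keratins marked both lines, but not the same ones to the same degree. KRT8 had 1452 and 3094 CPM in A549 and 6862 and 6648 CPM in A549/DDP, where CPM stands for counts scaled to library size by TMM. KRT18 had 1437 and 2019 CPM in A549 and 3955 and 3902 CPM in A549/DDP, and CDH1, the cadherin of epithelial junctions, had 33.6 and 83.4 CPM in A549 and 312 and 249 CPM in A549/DDP. KRT7 went the other way, with 4949 and 2999 CPM in A549 and 1299 and 1213 CPM in A549/DDP. KRT19 had 29.4 and 41.1 CPM in A549 and 7.19 and 0 CPM in A549/DDP, so it was not detected in A549/DDP replicate 2. Of the 6 epithelial markers KRT8, KRT18 and CDH1 passed the test described below as higher in A549/DDP and KRT7 as lower, and by mean CPM KRT7 was the highest in A549 and KRT8 in A549/DDP, with a summed level of 7903, 8242, 12438 and 12017 CPM. EPCAM had only 1.91 and 5.67 CPM in A549 and 2.50 and 4.73 CPM in A549/DDP. Of the 6 lung lineage markers NKX2-1, the surfactant genes and NAPSA, SFTPA1 and SFTPC were at 0 in all 4 inputs, and the summed level of the list was 1.00, 0.818, 3.64 and 1.78 CPM. The summed level of the 3 endothelial markers did not exceed 0.451 CPM, and that of the 6 fibroblast markers was 11.6, 12.6, 32.4 and 11.4 CPM, most of it COL1A1. Among the 5 leukocyte markers CD3E was at 0 and CD68, a lysosomal protein that other cells also make, held nearly the whole sum of 67.5, 63.4, 59.1 and 69.6 CPM.

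To ask how RNA of the repair genes differed between the resistant and the parental line, A549/DDP inputs were compared with A549 inputs over all 16406 genes. PCNA and DDB1 rose in A549/DDP, and ERCC4, GTF2H3 and GTF2H1 fell, so that 5 of 44 members (11.4%) passed at an adjusted p under 0.05 (edgeR quasi-likelihood fit, p-values adjusted by Benjamini-Hochberg over all genes). Among all genes tested 2437 passed, or 14.9%, with 1124 higher (6.85%) and 1313 lower (8.00%), so in this test the share of members that passed was near the background in each direction. With an unadjusted p under 0.05 the count was 20 of 44 members (45.5%) beside 5360 of all genes (32.7%). The median log2 fold change of the members was -0.13 and that of all genes tested was -0.0016, and 26 members lay below 0 and 18 above. The count of members that passed rested on single libraries, being 11 (25.0%, beside 17.2% of all genes) without A549 replicate 1, 14 (31.8%, beside 20.7%) without A549 replicate 2, 2 (4.55%, beside 11.2%) without A549/DDP replicate 1 and 5 (11.4%, beside 11.1%) without A549/DDP replicate 2. It was 17 (38.6%) with DESeq2, with no filter on counts and with a minimum of 10 counts in every library, beside 18.9%, 17.6% and 28.1% of all genes in these settings, so there the share of members exceeded that of all genes. These backgrounds differ in kind. With DESeq2 and with no filter they held 22792 genes, down to 1 count in total. With the minimum of 10 counts the background held 12840 genes. Every member had at least 86 counts in each input, and the part of low-count genes in the excess was not tested. The count of members was 16 (36.4%, beside 21.6%) with a replicate block, 5 higher, 11 lower and 5 shared with the main test. A shallow second pair of inputs alone for A549 gave 16 (36.4%, beside 27.2%), 11 higher, 5 lower and 2 shared with the main test. In limma it was 6 (13.6%, beside 9.69%) on log2(TPM + 1), 5 (11.4%, beside 7.64%) on log2(TPM + 0.1), 5 of 43 (11.6%, beside 11.4%) on log2(FPKM + 1) and 0 with no filter, where no gene passed, and with upper-quartile scaling it was 7 (15.9%, beside 15.5%). It was 1 (2.27%, beside 4.10%) when this shallow pair joined the first. The same 17 passed in these 3 settings, namely the 5 above with XPC, DDB2, XPA, CCNH, CDK7, RPA2, RFC1, RFC3, POLD1, POLD2, POLE3 and LIG1, and below the values of the main test are given. In bulk RNA, fewer cells with a transcript and less RNA per cell cannot be told apart.

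**Figure D1:**
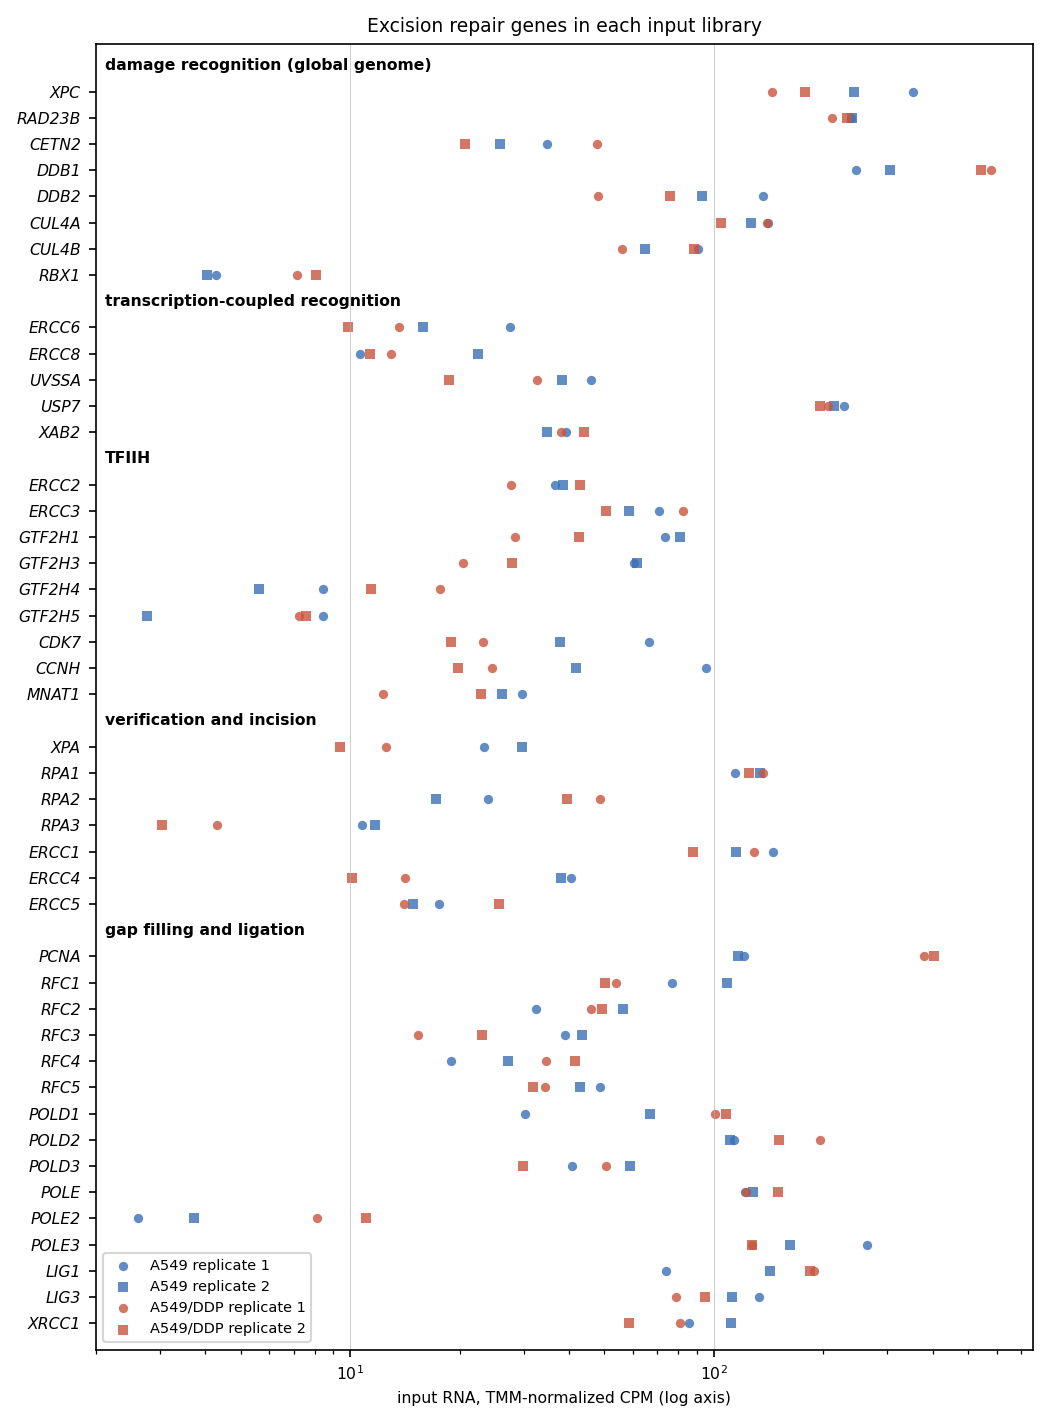
Level of each of the 44 genes in the 4 input libraries, in TMM-normalized CPM on a log axis, grouped by role, with A549 in blue and A549/DDP in red. PCNA and DDB1 lie to the right in both A549/DDP libraries, and ERCC4, GTF2H1 and GTF2H3 to the left.

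Per transcript length, in mean TPM, PCNA was the most abundant member in A549/DDP, followed by LIG1 and DDB1. In A549 the order differed, and ERCC1, LIG3, RAD23B, XPC and POLE3 were above PCNA. GTF2H5 was the least abundant in each line. PCNA had 149 ± 11.1 TPM in A549 and 496 ± 30.2 TPM in A549/DDP (SD, n = 2), and GTF2H5 had 1.14 ± 0.728 TPM in A549 and 1.56 ± 0.0566 TPM in A549/DDP (SD, n = 2). ERCC1 had 187 ± 6.88 TPM in A549 and 146 ± 38.8 TPM in A549/DDP (SD, n = 2), and ERCC4, its nuclease partner, had 30.6 ± 2.86 TPM in A549 and 6.09 ± 2.78 TPM in A549/DDP (SD, n = 2). So the RNA of the ERCC1 subunit exceeded that of the ERCC4 subunit in each line.

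Of the 8 genes for damage recognition across the genome, 1 rose, none fell and 7 did not pass. DDB1, the adaptor that holds DDB2 and other substrate receptors on the CUL4 ubiquitin ligases, had 247 and 306 CPM in A549 and 577 and 545 CPM in A549/DDP (log2 fold change 1.02, SE 0.17, adjusted p = 0.0158). Both A549/DDP libraries were above both A549 libraries. The call was lost without A549/DDP replicate 1 (adjusted p = 0.0745) and without A549/DDP replicate 2 (adjusted p = 0.051), while the log2 fold change stayed at 0.96 and 1.06. With both A549 pairs in edgeR the DDB1 call was also lost (log2 fold change 1.56, adjusted p = 0.126). The same held in limma on log2(TPM + 1) without a filter (1.08, adjusted p = 0.108). Against the second pair alone, with 7 and 9 counts of DDB1, its log2 fold change was 3.07. XPC, which binds the distorted helix and starts repair outside transcribed strands, had 354 and 244 CPM in A549 and 144 and 178 CPM in A549/DDP. It gave a log2 fold change of -0.89 with an SE of 0.23 and an adjusted p of 0.0546 and so narrowly missed the threshold, with no overlap between the lines. XPC passed when A549 replicate 1 or A549 replicate 2 was left out (adjusted p = 0.00737 and 2.12e-07), and not when A549/DDP replicate 1 or 2 was (adjusted p = 0.201 and 0.089). Against the second pair of A549 inputs, with only 7 and 12 counts of XPC, its sign turned (log2 fold change 1.03, adjusted p = 0.038), while the median of all genes moved to 0.80. DDB2, the lesion-binding partner of DDB1, had 137 and 93.1 CPM in A549 and 47.9 and 75.8 CPM in A549/DDP (log2 fold change -0.89, SE 0.30, adjusted p = 0.102). Its lines did not overlap, but the difference did not pass; of the 4 libraries only leaving out A549 replicate 2 made it pass (adjusted p = 0.000247). The 7 members that did not pass, RAD23B, CETN2, CUL4A, CUL4B and RBX1 besides XPC and DDB2, ran from -0.89 to 0.87 in log2 fold change.

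None of the 5 genes for recognition coupled to transcription passed, and their lowest adjusted p was 0.211. ERCC6 and ERCC8, the Cockayne syndrome proteins that respond to stalled polymerase, with UVSSA, its partner USP7, and XAB2, ran from -0.89 to 0.15 in log2 fold change, with 4 of 5 below 0.

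TFIIH had 2 members that fell, none that rose and 7 that did not pass. GTF2H3, a subunit of its core ring, had 60.3 and 61.5 CPM in A549 and 20.4 and 27.9 CPM in A549/DDP (log2 fold change -1.33, SE 0.26, adjusted p = 0.0232). GTF2H1, the core subunit that contacts XPC and ERCC5, had 73.4 and 80.7 CPM in A549 and 28.4 and 42.6 CPM in A549/DDP (log2 fold change -1.12, SE 0.26, adjusted p = 0.0408). For each of these subunits both A549/DDP libraries were below both A549 libraries. Both calls were lost without A549/DDP replicate 1 (adjusted p = 0.0733 for GTF2H3 and 0.138 for GTF2H1) and in all 4 settings with limma (adjusted p from 0.0658 to 0.135 for GTF2H3 and from 0.0563 to 0.151 for GTF2H1). They were also lost against the second pair of A549 inputs (adjusted p = 0.056 and 0.3055) and with both pairs (adjusted p = 0.0589 and 0.125). The fold changes were not smaller in all of these, since with limma they ran from -1.24 to -1.38 for GTF2H3 and from -1.44 to -1.56 for GTF2H1. Without A549/DDP replicate 1 they were smaller, at -1.15 for GTF2H3 and -0.87 for GTF2H1. Against the second pair they were -1.38 and -0.72, and with both pairs -1.45 and -1.08. ERCC2, the XPD helicase that tests for the lesion, had 36.6 and 38.5 CPM in A549 and 27.8 and 42.9 CPM in A549/DDP (log2 fold change -0.09, SE 0.29, adjusted p = 0.889). Its lines overlapped in CPM, and the sign of this small difference turned in 7 of the other settings. In TPM the lines did not overlap, and A549/DDP was higher, with 36.08 and 33.38 beside 22.45 and 30.31 in A549. CCNH and CDK7, the cyclin and the kinase of the TFIIH kinase module, are named here after their values were seen, since they were nearest to the threshold. CCNH had 95.3 and 41.9 CPM in A549 and 24.6 and 19.8 CPM in A549/DDP (log2 fold change -1.63, SE 0.42, adjusted p = 0.0511). CDK7 had 66.5 and 37.7 CPM in A549 and 23.2 and 18.9 CPM in A549/DDP (log2 fold change -1.31, SE 0.35, adjusted p = 0.0548). In each of these genes A549 replicate 1 was well above A549 replicate 2, and both A549/DDP libraries were below both. CCNH passed in limma with a filter (adjusted p from 0.0361 to 0.0466) and in edgeR with upper-quartile scaling (adjusted p = 0.0494), where CDK7 did not. Against the shallow second pair in edgeR both passed (log2 fold change -2.41 and -3.05, adjusted p = 0.000729 and 8.43e-06). With both A549 pairs neither passed (adjusted p = 0.0622 and 0.0747). Without A549 replicate 1 the log2 fold change shrank to -0.93 for CCNH (adjusted p = 0.13) and -0.86 for CDK7 (adjusted p = 0.206), and without A549 replicate 2 it grew to -2.12 and -1.68 and both passed. The summed level of the 9 TFIIH genes was 449 and 353 CPM in A549 and 244 and 244 CPM in A549/DDP, and their median log2 fold change was -0.67. Not all were lower, since 6 lay below 0 and 3 above, namely GTF2H4, GTF2H5 and ERCC3. Their log2 fold changes were 1.05, 0.41 and 0.04 (adjusted p = 0.205, 0.781 and 0.949). GTF2H4 had 8.45 and 5.61 CPM in A549 and 17.7 and 11.4 CPM in A549/DDP, with no overlap between the lines.

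Of the 7 genes for verification and incision, 1 fell, none rose and 6 did not pass. ERCC4, the XPF nuclease subunit that cuts on the 5' side of the lesion, had 40.6 and 37.9 CPM in A549 and 14.2 and 10.1 CPM in A549/DDP (log2 fold change -1.69, SE 0.32, adjusted p = 0.0213). This was the largest fall among the members that passed, and the call held without each of the 4 libraries (adjusted p from 0.00449 to 0.0464). Against the second pair of A549 inputs, with only 1 and 2 counts of ERCC4, the log2 fold change was -0.04 (adjusted p = 0.98), or -0.83 relative to the median of all genes in that setting. With both A549 pairs in edgeR the ERCC4 call was also lost (log2 fold change -1.45, adjusted p = 0.105). The same held in limma on log2(TPM + 1) without a filter (-2.21, adjusted p = 0.122). ERCC1, the partner without which XPF is unstable and a gene much studied in platinum response, had 145 and 115 CPM in A549 and 129 and 87.7 CPM in A549/DDP (log2 fold change -0.27, SE 0.25, adjusted p = 0.538). Its A549/DDP libraries lay on both sides of A549 replicate 2, so the lines overlapped in CPM. In TPM they did not overlap, with 192 and 182 in A549 and 173 and 118 in A549/DDP. Without A549/DDP replicate 1 the log2 fold change of ERCC1 was -0.59, and without A549/DDP replicate 2 it was -0.024. XPA, which holds the opened complex in place, had 23.3 and 29.8 CPM in A549 and 12.6 and 9.40 CPM in A549/DDP (log2 fold change -1.27, SE 0.36, adjusted p = 0.0659), with no overlap between lines and no call. ERCC5, the XPG nuclease that cuts on the 3' side, had 17.6 and 14.9 CPM in A549 and 14.1 and 25.6 CPM in A549/DDP (log2 fold change 0.29, SE 0.41, adjusted p = 0.71). ERCC5 is uncertain because it shares its exons with the readthrough gene BIVM-ERCC5, which held 823 and 1592 counts in A549 and 1229 and 1179 in A549/DDP beside 579, 527, 417 and 893 for ERCC5. With both summed, a setting added after the data were seen, the log2 fold change was 0.17 (adjusted p = 0.718). RPA2 and RPA3, subunits of the RPA protein that coats the undamaged strand, are named after their values were seen and went opposite ways. RPA3 had 10.8 and 11.7 CPM in A549 and 4.32 and 3.04 CPM in A549/DDP (log2 fold change -1.61, SE 0.59, adjusted p = 0.118). It passed in limma with a filter (adjusted p from 0.0327 to 0.0448) and in edgeR against the second pair (adjusted p = 6.9e-07). RPA2 had 23.9 and 17.2 CPM in A549 and 48.5 and 39.5 CPM in A549/DDP (log2 fold change 1.10, SE 0.30, adjusted p = 0.0582). It passed without A549 replicate 1 (adjusted p = 0.0128) and not without each of the other 3 libraries (adjusted p from 0.0738 to 0.177).

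**Figure D2:**
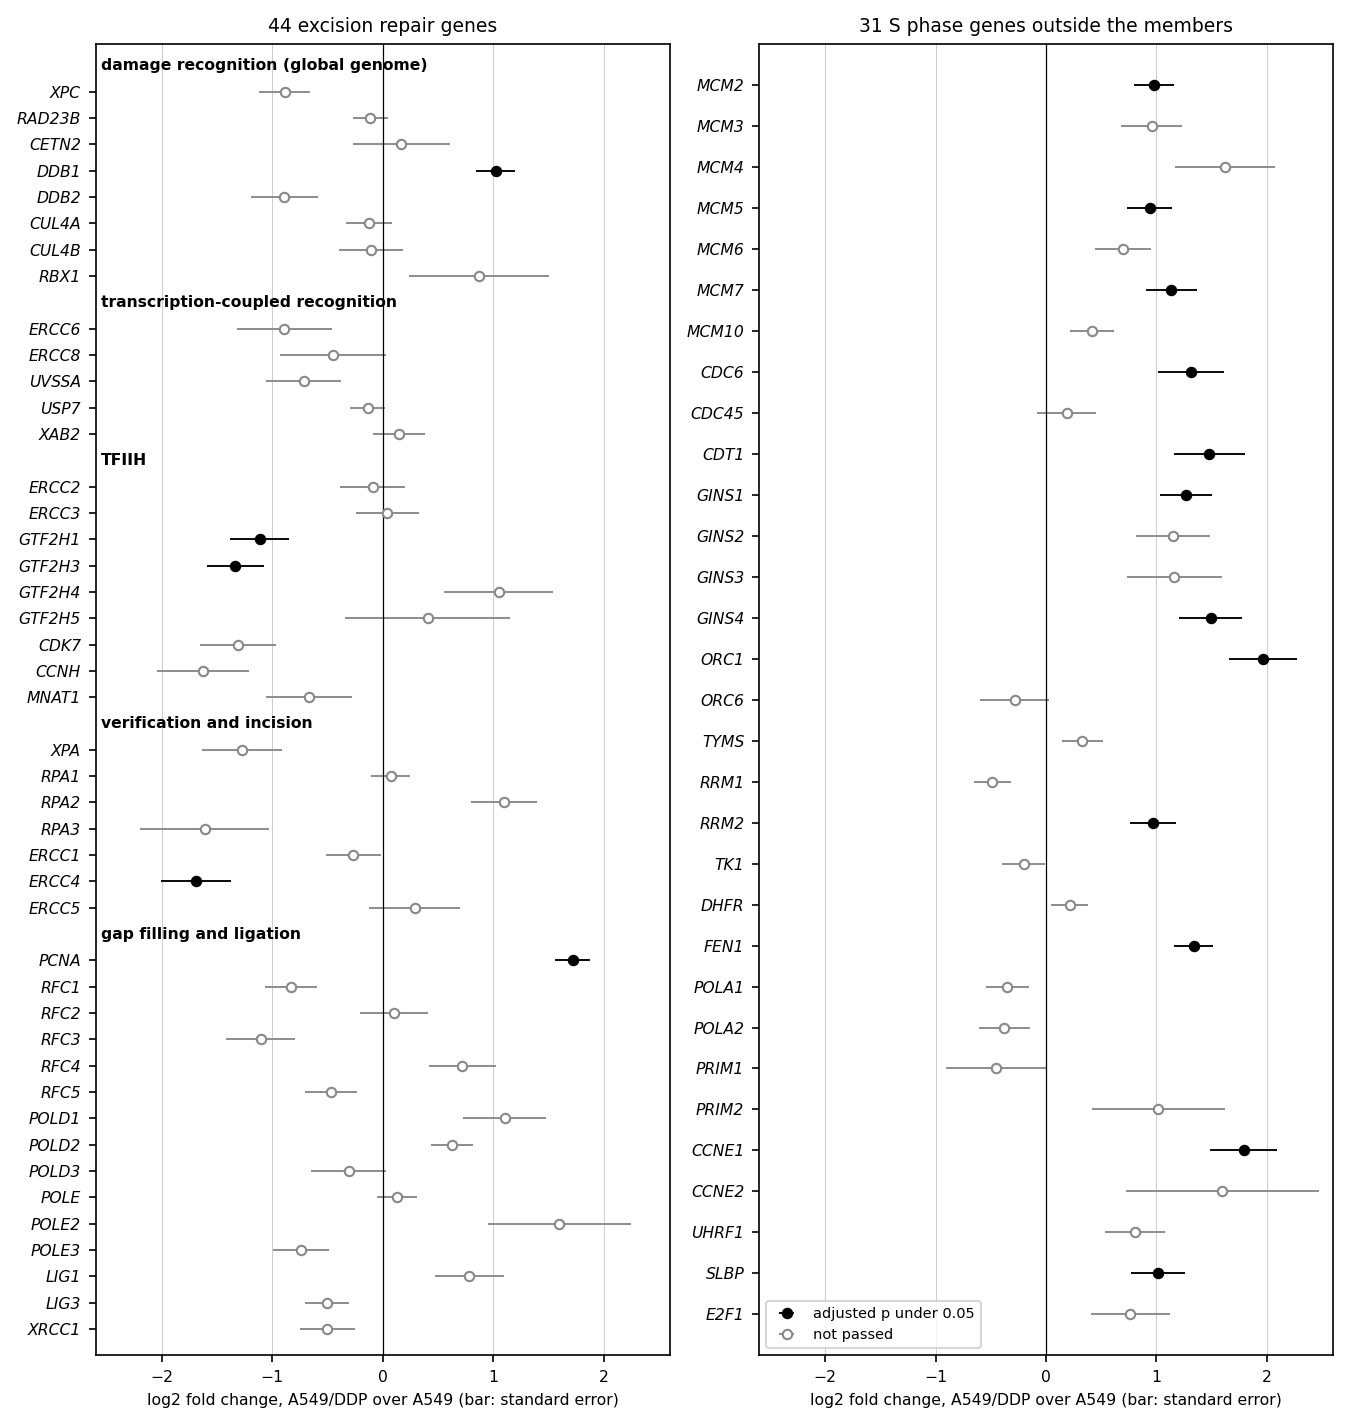
Log2 fold change of A549/DDP over A549 for the 44 repair genes by role (left) and for 31 S phase genes that are not members (right), with bars for the approximate standard error and filled points for an adjusted p under 0.05. Among the repair genes 2 filled points lie above 0 and 3 below, and among the S phase genes 12 lie above 0 and none below.

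Gap filling and ligation, the steps shared with DNA replication, had 1 gene that rose, none that fell and 14 that did not pass. PCNA, the sliding clamp that tethers the polymerase, had 121 and 116 CPM in A549 and 378 and 405 CPM in A549/DDP (log2 fold change 1.72, SE 0.16, adjusted p = 0.00353), which was 3.30-fold higher. Both A549/DDP libraries were far above both A549 libraries, and PCNA passed without each of the 4 libraries. LIG1, the replicative ligase, had 73.7 and 143 CPM in A549 and 189 and 184 CPM in A549/DDP, and POLD1, the catalytic subunit of polymerase delta, had 30.2 and 66.9 CPM in A549 and 101 and 108 CPM in A549/DDP. In both genes A549 replicate 1 was the lowest library and neither passed in the main test (adjusted p = 0.145 and 0.101), though both were among the 17 of the settings above. The 5 RFC clamp loader genes, the other polymerase subunits, LIG3 and XRCC1 did not pass the main test either. RFC1, RFC3 and POLE3 were also among the 17 but were lower in A549/DDP, with no overlap between the lines. Their log2 fold changes were -0.83, -1.10 and -0.74 (adjusted p = 0.0647, 0.0644 and 0.104). Like LIG1 and POLD1, they are named beyond the naming rule given below. The 14 genes ran from -1.10 to 1.60 in log2 fold change, and of all 15 in the group 8 lay above 0 and 7 below.

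S phase genes outside the members were set beside PCNA because its protein also serves replication. Of 31 such genes 12 rose in A549/DDP and none fell, beside 6.85% higher and 8.00% lower among all genes tested. Their median log2 fold change was 0.97. FEN1, the flap nuclease of lagging-strand synthesis, had 60.3 and 69.2 CPM in A549 and 161 and 166 CPM in A549/DDP (log2 fold change 1.34, SE 0.18, adjusted p = 0.00868). ORC1, a subunit of the origin recognition complex, had 13.0 and 21.0 CPM in A549 and 64.0 and 68.9 CPM in A549/DDP (log2 fold change 1.96, adjusted p = 0.0127). CCNE1, the cyclin of S phase entry, had a log2 fold change of 1.79 (adjusted p = 0.0164), and MCM2, of the replicative helicase, had 0.98 (adjusted p = 0.0201). The summed level of the list was 1665 and 2267 CPM in A549 and 3269 and 3435 CPM in A549/DDP, with RRM1 as its highest gene by mean CPM in A549, MCM4 in A549/DDP and no gene at 0. In 28 of the 31 genes A549 replicate 1 was below A549 replicate 2. The part of S phase expression in the difference of PCNA was not tested.

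Of 24 other genes of the pathway 5 fell and none rose, beside 8.00% lower and 6.85% higher among all genes tested. They include the COP9 signalosome and the chromatin factors that act with repair, and their median log2 fold change was -0.33. TCEA1, an elongation factor that restarts stalled polymerase, had 417 and 321 CPM in A549 and 109.7 and 122 CPM in A549/DDP (log2 fold change -1.67, SE 0.20, adjusted p = 0.00615). INO80, the catalytic subunit of a chromatin remodeler, had a log2 fold change of -1.05 (adjusted p = 0.0255). HMGN1, a nucleosome-binding protein, had -0.95 (adjusted p = 0.0293), and POLK, a polymerase used in part of the gap filling, had -1.95 (adjusted p = 0.0299). In all 4 genes both A549/DDP libraries were below both A549 libraries. GTF2H2, the TFIIH subunit kept in this list, is uncertain because its reads can be split with GTF2H2B and GTF2H2C.

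Neighbouring genes make further counts uncertain, since the libraries kept strand but whether the counting used it is not given in the sources used here. The span of ERCC1 overlaps that of POLR1G on the other strand by 3404 bases, that of ERCC2 overlaps KLC3 by 1683 bases and that of PCNA overlaps PCNA-AS1 by 384 bases. The longest overlap is that of CCNH with RASA1 on the other strand, over 80446 bases, and CCNH also overlaps a long non-coding RNA gene on its own strand by 5214 bases. CDK7 overlaps CCDC125 on the other strand by 4392 bases and CUL4A overlaps PCID2 by 477 bases. XPC overlaps XPC-AS1 and XPA overlaps NCBP1, and ERCC4 and GTF2H1 overlap long non-coding RNA genes. RPA3 overlaps UMAD1 by 77856 bases, and ERCC6 overlaps PGBD3 on its own strand by 9177 bases. On the other strand RFC5 overlaps WSB2 by 8762 bases and LIG3 overlaps RFFL by 4883 bases.

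The start regions of the 5 members that passed are shown because these are the genes whose RNA differed. Each is the 250 bases before the gene start in RefSeq on GRCh38.p14, read 5' to 3' on the strand of the gene, where 41 of 44 members had an entry and RPA2, RPA3 and POLD3 had none. The windows lie at chr20:5126623-5126872, minus strand for PCNA, chr11:61333106-61333355, minus strand for DDB1, chr11:18322317-18322566, plus strand for GTF2H1, chr12:123633579-123633828, plus strand for GTF2H3 and chr16:13919904-13920153, plus strand for ERCC4. Capitals mark matches on either strand to the E2F letters TTTCCCGC or TTTGGCGC, the CCAAT box (CCAAT), the GC box (GGGCGG), the E-box (CACGTG) or the cAMP response element (TGACGTCA).
PCNA: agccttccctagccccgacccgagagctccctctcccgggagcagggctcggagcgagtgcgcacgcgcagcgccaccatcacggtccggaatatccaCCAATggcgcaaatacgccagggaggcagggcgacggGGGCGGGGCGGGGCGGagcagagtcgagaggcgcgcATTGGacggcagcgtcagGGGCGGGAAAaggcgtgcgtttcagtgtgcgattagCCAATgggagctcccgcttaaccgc
DDB1: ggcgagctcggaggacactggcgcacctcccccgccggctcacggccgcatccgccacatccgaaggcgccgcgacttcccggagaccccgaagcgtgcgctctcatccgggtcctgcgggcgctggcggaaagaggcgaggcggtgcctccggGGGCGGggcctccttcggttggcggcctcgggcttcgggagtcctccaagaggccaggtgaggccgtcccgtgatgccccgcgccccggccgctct
GTF2H1: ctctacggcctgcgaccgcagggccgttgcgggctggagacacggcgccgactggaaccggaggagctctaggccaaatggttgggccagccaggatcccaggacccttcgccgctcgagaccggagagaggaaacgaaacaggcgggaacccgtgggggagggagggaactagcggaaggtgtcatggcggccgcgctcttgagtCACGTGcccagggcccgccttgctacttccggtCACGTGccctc
GTF2H3: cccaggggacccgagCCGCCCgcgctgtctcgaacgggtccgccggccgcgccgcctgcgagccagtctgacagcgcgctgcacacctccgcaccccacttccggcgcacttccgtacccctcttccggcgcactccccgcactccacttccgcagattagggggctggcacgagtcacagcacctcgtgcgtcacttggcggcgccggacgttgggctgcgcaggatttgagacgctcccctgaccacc
ERCC4: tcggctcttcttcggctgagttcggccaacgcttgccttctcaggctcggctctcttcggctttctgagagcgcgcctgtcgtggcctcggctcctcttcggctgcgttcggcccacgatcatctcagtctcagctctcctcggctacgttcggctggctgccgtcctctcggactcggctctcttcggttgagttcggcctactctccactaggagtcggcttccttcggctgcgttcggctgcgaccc

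The PCNA window held TTTCCCGC on the opposite strand, from 59 to 52 bases before the start and overlapping a GC box, besides 3 CCAAT boxes and 4 GC boxes in all, 3 of which overlap each other. DDB1 and GTF2H3 each held 1 GC box, GTF2H1 held 2 E-boxes, and ERCC4 held none of the letters searched, which says only that they are not in this window. Over 35116 windows of the same length TTTCCCGC occurred in 1.39%, TTTGGCGC in 0.55%, the CCAAT box in 32.0%, the GC box in 42.6%, the E-box in 6.34% and the cAMP response element in 1.65%. That set holds several windows for some genes, such as 4 for CUL4A, and was not limited to genes tested in RNA. Each member entered with 1 window, so the shares below are not set against a like background. Of the 41 members with a window, 4 held TTTCCCGC (9.76%), namely XPC, PCNA, RFC3 and LIG1, and 1 held TTTGGCGC (2.44%), POLE. The GC box was in 29 of them (70.7%), the CCAAT box in 16 (39.0%), the E-box in 6 (14.6%) and the cAMP response element in 2 (4.88%). For UVSSA and POLD2 the window used lay 5197 and 777 bases from the edge of the gene span. Both of these windows held a CCAAT box and a GC box, and that of UVSSA also held an E-box. Of the 4 genes with TTTCCCGC, PCNA and LIG1 had a log2 fold change above 0 and XPC and RFC3 below, and only PCNA passed in the main test.

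The m6A peak lists show where methylated fragments of these transcripts were enriched over input. Peaks were called by library, and the lists held 26320 and 14576 peaks for A549 and 27244 and 10661 for A549/DDP. At least 1 peak lay in 25 of 44 members (56.8%) in A549 replicate 1 and 15 (34.1%) in A549 replicate 2. For A549/DDP the numbers were 24 (54.5%) with replicate 1 and 14 (31.8%) with replicate 2. Among all 16406 genes tested the shares were 43.7%, 30.6%, 40.7% and 22.2%, so in both the longer list of each line covered more members. In at least 1 list a peak was found in 35 members (79.5%, beside 57.0% of all genes tested). Both A549 lists held a peak in 13 members (29.5%, beside 27.1%), both A549/DDP lists in 12 (27.3%, beside 19.5%) and all 4 lists in 9 (20.5%, beside 13.9%). With 2 libraries in each group an exact permutation test could not reach 0.05, so no test is given, and the depth of the pulled-down libraries is unknown.

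**Figure D3:**
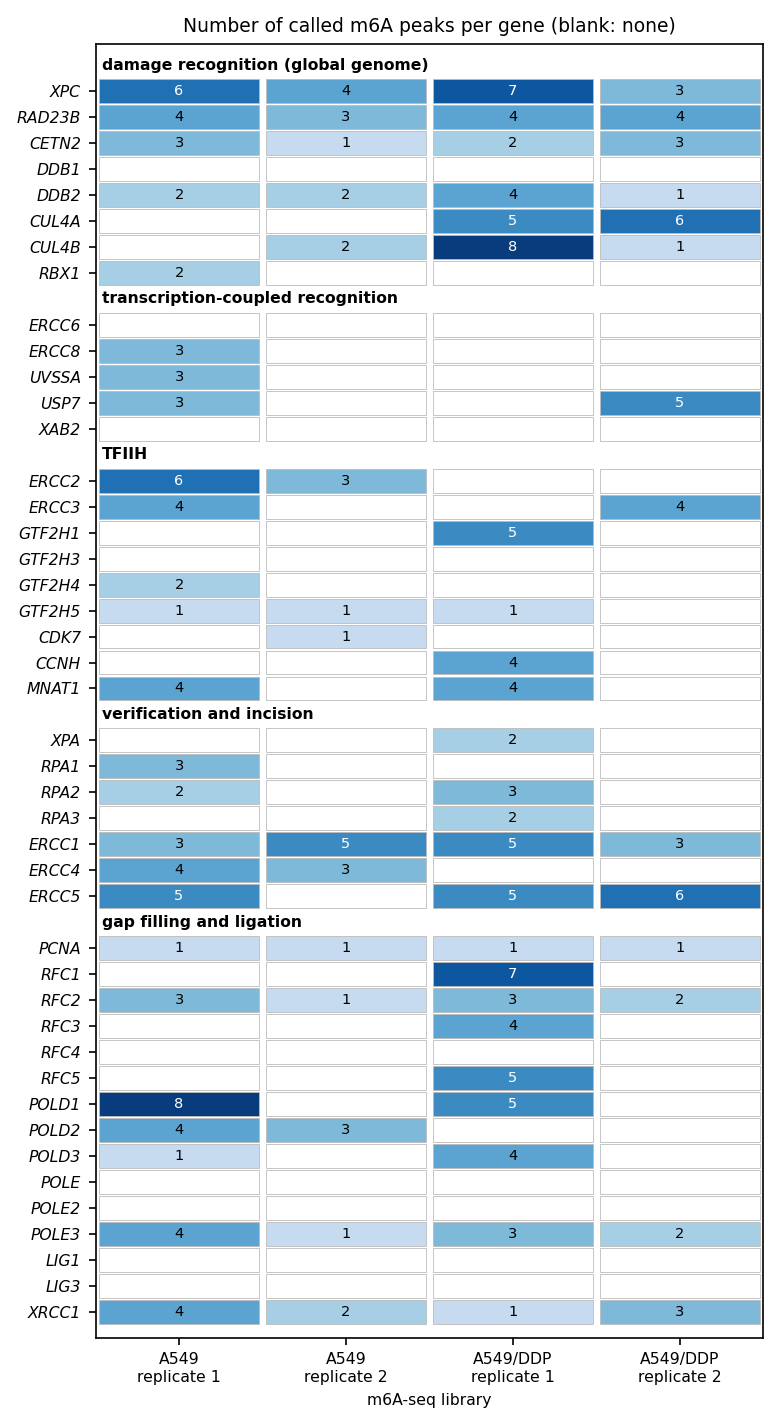
Number of called m6A peaks in each of the 44 genes (rows, by role) in each of the 4 m6A-seq libraries (columns), where blank cells hold no peak. XPC, RAD23B, CETN2, DDB2, ERCC1, PCNA, RFC2, POLE3 and XRCC1 have a peak in all 4 columns, and 9 genes have none in any.

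XPC, RAD23B, CETN2 and DDB2, all of damage recognition, had a peak in all 4 lists, as did ERCC1, PCNA, RFC2, POLE3 and XRCC1. The median RNA level over both lines was 42.5 CPM for the 9 members without a peak, 33.9 CPM for the 13 with a peak in 1 list, 55.3 CPM for the 10 in 2 lists, 18.0 CPM for the 3 in 3 lists and 119 CPM for the 9 in all 4 lists. It did not rise steadily with the number of lists, and the part of RNA level in being called was not tested. DDB1 and GTF2H3, both called in RNA, had no peak in any list. ERCC6, XAB2, RFC4, POLE, POLE2, LIG1 and LIG3 made up the rest of these 9. Only 1 of the 9 members with a peak in all 4 lists, XPC, remained when each list was reduced to its best 10661 peaks by p-value, and none remained at a p-value at or below 1e-05.

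Positions are those of the lists, on hg38. PCNA had 1 peak in each list, and all 4 shared the 246 bases at chr20:5119663-5119908 on the minus strand, with p-values of 0.00019, 0.00025, 0.0014 and 0.01. In DDB2 the 4 lists shared the bases at chr11:47238990-47239190 on the plus strand. In CETN2 they shared 199 bases at chrX:152827714-152827912 on the minus strand. In XPC they shared 250 bases at chr3:14158124-14158373 and 51 bases at chr3:14178483-14178533 on the minus strand. In ERCC1 they shared 700 bases in exon blocks between 45408976 and 45413629 of chromosome 19, near the end of the gene. Of these 700 bases, 600 lie in the span of POLR1G on the other strand, whose own peaks overlapped the region in all 4 lists, so the gene behind the ERCC1 peaks is uncertain. The PCNA stretch lies wholly in the span of PCNA-AS1, which had no peak over it. The stretches common to all 4 lists were 100 bases in RAD23B, at chr9:107306495-107306594 on the plus strand, 99 bases in RFC2, at chr7:74232039-74232137 on the minus strand, and 51 bases in XRCC1, at chr19:43546656-43546706 on the minus strand. In POLE3 they shared 296 bases in exon blocks between 113408708 and 113409629 of chromosome 9. Thus the RNA of PCNA was higher in A549/DDP while the place of its peak was common to both lines.

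ERCC2, ERCC4 and POLD2 had peaks in both A549 lists and in neither A549/DDP list, 3 of 44 members (6.82%) beside 4.62% of all genes tested. ERCC2 had 6 and 3 peaks in A549, and the replicates shared 3 regions within chr19:45349887-45351237 on the minus strand, at the end of the gene, with a largest p-value of 1.5e-06. All bases shared in these 3 regions lie in the span of KLC3 on the other strand, and in A549 replicate 1 a peak assigned to KLC3 overlapped 2 of them, so the gene behind these peaks is uncertain. The RNA of ERCC2 overlapped between the lines in CPM but not in TPM, as given above. ERCC4 had 4 and 3 peaks in A549, and the replicates shared 599 bases at chr16:13947717-13948315 and 200 bases at chr16:13935182-13935381, on the plus strand. Its RNA fell in A549/DDP to 14.2 and 10.1 CPM, and the part of that fall in the missing peaks was not tested. POLD2, a small subunit of polymerase delta, had 4 and 3 peaks in A549, and the replicates shared 251 bases at chr7:44121887-44122137 and another 251 in exon blocks between 44115880 and 44116913 of chromosome 7, on the minus strand. Its RNA was 114 and 111 CPM in A549 and 196 and 152 CPM in A549/DDP (log2 fold change 0.63, SE 0.19, adjusted p = 0.0798), so that the line without called peaks had the higher RNA values. This difference passed when A549 replicate 1 or 2 was left out (adjusted p = 0.0152 and 0.0266), and not when A549/DDP replicate 1 or 2 was (log2 fold change 0.41 and 0.80, adjusted p = 0.434 and 0.132). ERCC2, ERCC4 and POLD2 kept this pattern in lists of equal size, and ERCC2 and POLD2 kept it at a p-value at or below 1e-05.

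CUL4A, a scaffold of the ligase that carries DDB1, had the reverse pattern, with 5 and 6 peaks in A549/DDP and none in A549 (1 of 44 members, 2.27%, beside 1.97% of all genes tested). The A549/DDP replicates shared 1 region, the 300 bases at chr13:113263622-113263921 on the plus strand, and the other peaks lay at different places in the replicates. CUL4A RNA was 141 and 127 CPM in A549 and 140.5 and 104 CPM in A549/DDP (log2 fold change -0.13, SE 0.21, adjusted p = 0.749), with the lines overlapping. CUL4A kept this pattern in lists of equal size, where CUL4B joined it, but not with peaks limited to p-values of 1e-05 or lower. Under this limit CETN2, with a peak in all 4 full lists, kept peaks in both A549/DDP lists and in neither A549 list.

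**Figure D4:**
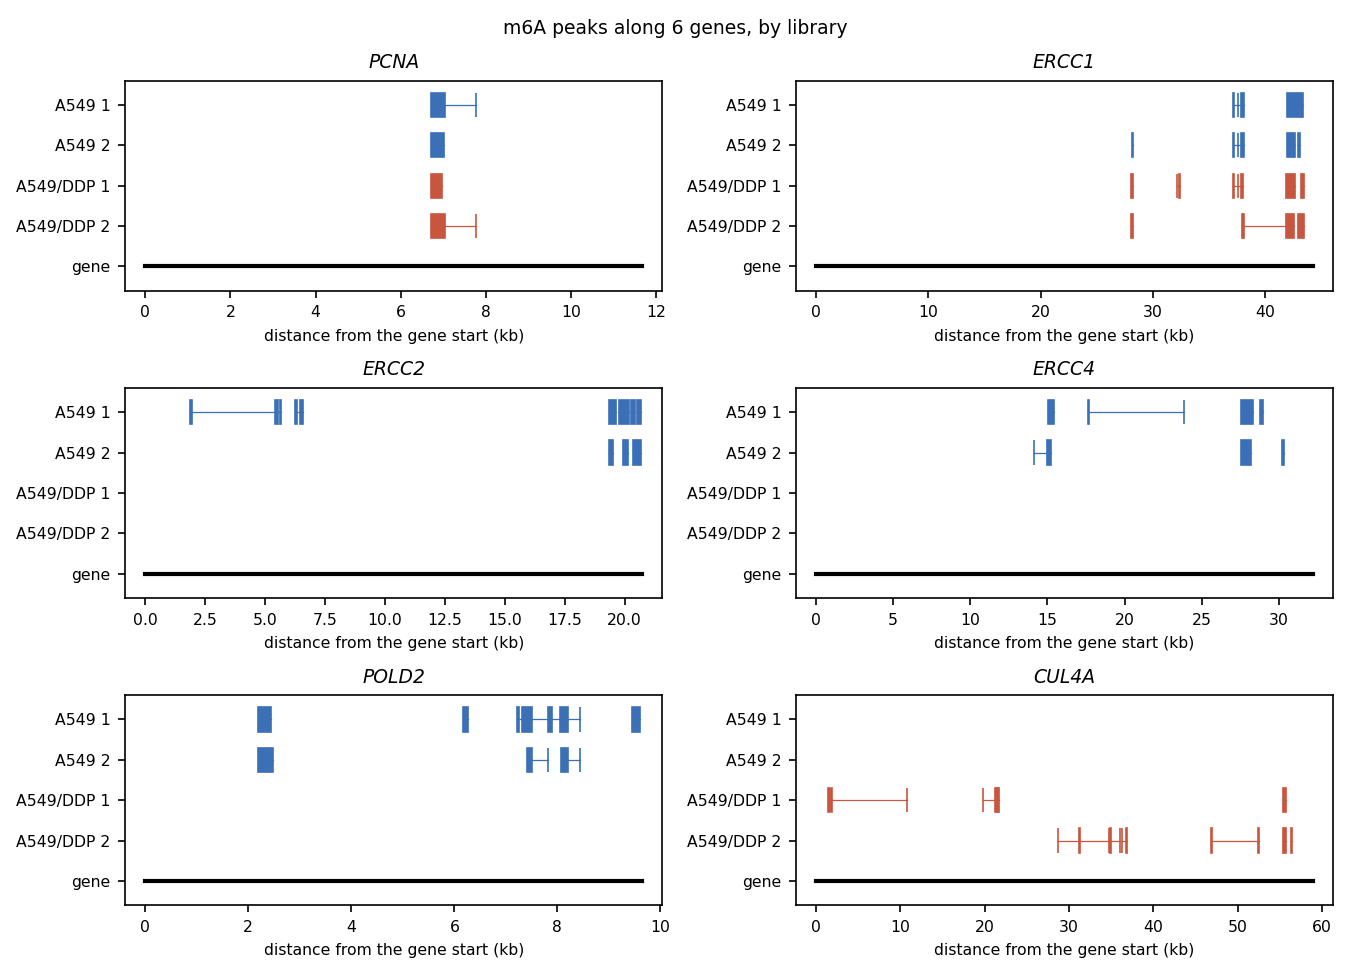
m6A peaks along PCNA, ERCC1, ERCC2, ERCC4, POLD2 and CUL4A in the 4 m6A-seq libraries, with distance from the gene start in kb, boxes for exon blocks, thin lines joining blocks of a peak and a black bar for the gene. PCNA and ERCC1 carry peaks at like places in all 4 libraries, ERCC2, ERCC4 and POLD2 only in A549, and CUL4A only in A549/DDP.

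ERCC5 had 5 peaks in A549 replicate 1, none in A549 replicate 2 and 5 and 6 in A549/DDP. At chr13:102862050-102862847 on the plus strand the list of A549 replicate 2 held a peak assigned to BIVM-ERCC5, so this place carried a peak in all 4 lists under the name of either gene. GTF2H1, which fell in RNA, had 5 peaks in A549/DDP replicate 1 and none elsewhere. XPA, CCNH, RPA3, RFC1, RFC3 and RFC5 likewise had peaks in A549/DDP replicate 1 alone, the longest list. RBX1, ERCC8, UVSSA, GTF2H4 and RPA1 had peaks in A549 replicate 1 alone, and CDK7 in A549 replicate 2 alone.

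Merged over libraries by at least 1 shared base, the peaks of the members formed 151 regions, of which 12 (7.95%) were in all 4 lists, 9 (5.96%) in both A549 lists only and 3 (1.99%) in both A549/DDP lists only. Of the 12, that of ERCC5 counts in the list of A549 replicate 2 only through the peak assigned to BIVM-ERCC5, and 1 of the 3 in XPC has no base common to the 4 lists. Over all 37903 regions these shares were 8.72%, 6.12% and 3.09%. Regions of 1 library made up 103 of the members' 151 (68.2%, beside 57.2% of all). Of the 256 peaks in members, 106 lay in the last 20% of the gene span and 41 in the first 20%, and 254 lay inside the span. These positions were not counted over all 78801 peaks, so no comparison with other genes is given.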

How the data were processed

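Input RNA of A549 and A549/DDP (2 libraries each) and 4 m6A-seq peak lists were used. For each input the deposited tables hold expected counts with TPM and FPKM, where the expected counts of the authors are estimates without normalization and TPM and FPKM are scaled for length and library size. For each m6A-seq library they deposited called peaks with a p-value, and whether this deposited p-value is adjusted is not stated. The submitters' processing notes name STAR, RSEM, bedtools and hg38. The peak caller is not given in the sources used here. Replicate numbers of the A549 m6A-seq libraries differ between labels and file names, and were taken from the labels. The second pair of A549 inputs (855034 and 982036 counts, 75.2% and 73.9% mitochondrial) carries near-identical labels and entered only as an alternative.

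Expected counts were rounded, filtered (filterByExpr), TMM-scaled and tested with edgeR 4.0.16 in R 4.3.3, without a block, with Benjamini-Hochberg adjustment over 16406 genes. SE is the size of the log2 fold change over the square root of F. The common biological coefficient of variation was 0.656, and replicates differed beyond sampling noise (chi-square per degree of freedom 89.6 and 54.9). Alternatives were DESeq2 1.42.0, limma 3.58.1 on log2 TPM or FPKM, other filters and scaling, the second pair and leaving out each library. Symbols were matched to 56948 of 58037 identifiers, and Python 3.11.15 was used for peaks. Given in full were members with an adjusted p under 0.05 and ERCC1, XPA, XPC, ERCC2, ERCC4, ERCC5 and DDB2, of other lists at most the 4 genes with the lowest adjusted p and, beyond that rule, the levels of all 6 epithelial markers, and of peaks the shared bases of members in all 4 lists or in both lists of 1 line alone. Members and lists were chosen with earlier results of these data known.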

Additional observations from a re-analysis of the deposited data

How the results depend on the processing

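The number of genes with an adjusted p under 0.05 was 2437 (1124 higher, 1313 lower) and ran to 4312 with DESeq2, 4010 without a filter, 3614 with at least 10 counts in every library and 3536 with the replicate block, and down to 1492 in limma on log2(TPM + 1), 1177 with a pseudocount of 0.1, 677 with both A549 pairs and 0 in limma without a filter, where 4519 genes had an unadjusted p under 0.05. The number of members, 5, was 17 with DESeq2, without a filter and with at least 10 counts, 16 with the replicate block (11 lower) and with the second pair (11 higher), 1 with both pairs and 0 in limma without a filter, where 16 had an unadjusted p under 0.05. Same-numbered libraries did not deviate together (correlation 0.0227), so the numbers were not taken as pairs. Leaving out each library gave 2052 to 3809 genes, 2 to 14 members and a median member log2 fold change from -0.38 to -0.14, with the lone sample assumed to vary like the other line; the median of all genes then moved to -0.20 without A549/DDP replicate 1 and to -0.11 without A549/DDP replicate 2. The second pair held 0 to 34 counts per member and moved the median of all genes to 0.80, with 3758 genes passing (2371 higher, 1387 lower), and there the members' median turned to 0.41, XPC to 1.03 (adjusted p = 0.038), ERCC1 to 0.17, ERCC2 to 1.50, CUL4A to 0.71 and ERCC5 to -0.087, which relative to that shift left XPC at 0.23, ERCC1 at -0.62, ERCC4 at -0.83, PCNA at 0.85 (1.65 before the shift), DDB1 at 2.28 (3.07 before), GTF2H1 at -1.52, GTF2H3 at -2.17 and the members' median at -0.38. ERCC2 also turned in limma on log2(TPM + 1), with and without the filter (0.40), on log2(TPM + 0.1) (0.41), on log2(FPKM + 1) (0.45) and with both pairs (0.13), and without A549/DDP replicate 1 (-0.44 to 0.17 without 1 library). CUL4A turned on log2(FPKM + 1) (0.038), with both pairs (0.083) and without A549/DDP replicate 2 (-0.38 to 0.062), and ERCC5 without A549/DDP replicate 2 (-0.21 to 0.64). PCNA lost its call only in limma without a filter (adjusted p = 0.0718; range over settings down to 2.79e-22), and the other 4 called members lost theirs there and with both pairs, at log2 fold changes of 1.08 and 1.56 for DDB1, -2.21 and -1.45 for ERCC4, -1.33 and -1.45 for GTF2H3 and -1.52 and -1.08 for GTF2H1. ERCC4 also lost its call with the second pair and DDB1 when A549/DDP replicate 1 or 2 was left out, while GTF2H1 and GTF2H3 lost theirs in all 4 limma settings, with the second pair and without A549/DDP replicate 1. The number of members with a peak in both A549 lists, 13, was 3 at a p-value at or below 1e-05, 5 in lists of equal size, 27 with a peak in either list and 13 to 25 without 1 library. In both A549/DDP lists, 12, it was 1, 7, 26 and 12 to 24, and in all 4 lists, 9, it was 0, 1, 18 and 9 to 10. The cause was not tested for any of these changes. Low counts limit RBX1, POLE2, RPA3 and GTF2H5, and peaks missing from the shorter lists cannot be told from lower depth.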
